A study of Mus musculus with 3 samples.

Results

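The genes described here serve the unfolded protein response and the amino acid response, a list of 41 genes of which 40 were measured among 19935 genes on 3 Affymetrix GeneChip arrays. Members were chosen by gene symbol. A probe set, the group of array probes that reads 1 transcript, was used where its annotation gave a single gene symbol, and the probe set with the highest mean stood for each gene. Aars was left out because its probe set also reads Exosc6. The RNA came from NMuMG cells, a mouse epithelial line derived from mammary gland. One array held MAFK clone 4 and another MAFK clone 10, both stable lines with FLAG-tagged MafK in the pCAGIP vector (MAFK, n = 2), and the last held mock cells with the pCAGIP vector alone (mock, n = 1). All 3 cultures were grown with the antibiotic puromycin. Each MAFK line is 1 clone, and nothing in the labels describes mock as a clone, so clonal differences and those due to MAFK cannot be told apart. MAFK is a small basic leucine zipper protein that binds DNA with CNC family partners and has no activation domain of its own.

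Secreted and membrane proteins are folded in the endoplasmic reticulum. When unfolded protein builds up there, the sensors IRE1, PERK and ATF6 raise the output of chaperones and of the machinery that removes misfolded protein. PERK phosphorylates the translation factor eIF2 alpha, a step shared with GCN2, which senses amino acid shortage. Phosphorylated eIF2 alpha favours translation of ATF4, a transcription factor that raises genes for amino acid synthesis, amino acid import and tRNA charging. Mammary epithelium, which secretes milk protein, is among the tissues in which this response has been studied.

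Some promoters of the listed genes carry DNA elements for which these branches are known. They are shown so that the values below can be read beside them. RefSeq promoters on GRCm38.p6 were matched for 37 of the 41 listed genes, and the 250 bases before each gene's start were searched on both strands. The endoplasmic reticulum stress element (ERSE, CCAAT and CCACG with 9 bases between them), bound by ATF6 and XBP1 with NF-Y, stood in the promoters of 7 of these 37 genes, against 0.130% of all 27025 genes with a promoter in the table. The C/EBP-ATF response element (CARE, searched as TGATGNAA), bound by ATF4 dimers, stood in 6 of 37, against 3.91% of all genes. The second stress element (ERSE-II, ATTGG and CCACG with 1 base between them) stood in 1, Herpud1, against 0.0370% of genes. The antioxidant response element (ARE, TGACNNNGC), of the kind that small MAF proteins bind with CNC partners, stood in 7 of 37, against 11.5% of all genes. The unfolded protein response element (UPRE, TGACG followed directly by TGG) stood in none of the 37, against 0.603% of all genes. No match of these motifs overlapped another in the 37 genes. In the following windows, written 5′ to 3′ on the strand of the gene, capitals mark the motif, with up to 20 bases on either side and cut at the gene's start. In Calr and in the nearer Hsp90b1 window the ERSE lies on the opposite strand, and so does the CARE in Atf3, Chac1, Herpud1 and Nupr1.
Hspa5 ERSE, chr2:34772005-34772063 (+): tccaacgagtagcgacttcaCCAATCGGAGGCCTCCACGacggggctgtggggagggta
Hsp90b1 nearer ERSE, chr10:86705513-86705571 (-): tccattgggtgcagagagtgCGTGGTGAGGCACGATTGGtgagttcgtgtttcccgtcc
Hsp90b1 farther ERSE, chr10:86705618-86705676 (-): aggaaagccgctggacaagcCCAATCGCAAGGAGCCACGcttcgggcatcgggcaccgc
Calr ERSE, chr8:84847055-84847113 (-): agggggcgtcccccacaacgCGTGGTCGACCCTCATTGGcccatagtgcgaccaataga
Canx ERSE, chr11:50325780-50325838 (-): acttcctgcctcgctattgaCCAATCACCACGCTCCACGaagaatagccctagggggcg
Pdia6 ERSE, chr12:17266471-17266529 (+): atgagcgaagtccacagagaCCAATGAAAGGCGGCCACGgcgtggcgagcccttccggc
Dnajc3 ERSE, chr14:118937807-118937865 (+): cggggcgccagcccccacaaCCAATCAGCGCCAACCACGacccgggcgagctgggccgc
Syvn1 ERSE, chr19:6046512-6046570 (+): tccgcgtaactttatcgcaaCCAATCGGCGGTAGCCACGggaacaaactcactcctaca
Herpud1 ERSE-II, chr8:94386357-94386407 (+): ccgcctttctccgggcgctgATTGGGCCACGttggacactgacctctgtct
Herpud1 CARE, chr8:94386297-94386344 (+): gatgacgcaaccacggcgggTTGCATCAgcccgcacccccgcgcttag
Asns CARE, chr6:7693210-7693252 (-): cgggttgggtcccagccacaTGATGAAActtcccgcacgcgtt
Chac1 CARE, chr2:119351029-119351076 (+): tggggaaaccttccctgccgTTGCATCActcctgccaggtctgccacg
Atf3 CARE, chr1:191183416-191183463 (-): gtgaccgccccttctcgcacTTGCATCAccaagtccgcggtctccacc
Nupr1 CARE, chr7:126625553-126625600 (-): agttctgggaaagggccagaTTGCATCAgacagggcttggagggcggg

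Members lay below mock in the MAFK clones more often than above it, and large differences were few. The values are log2 RMA values, so a difference of 1 is 2-fold. Of the 40 measured members, 20 (50.0%) lay at least 0.1 below mock in both clones and 4 (10.0%) at least 0.1 above it. Over all 19935 genes the same shares were 13.1% below and 19.9% above, and over the 11050 genes that reached 6.91, the median of all probe sets, on at least 1 array they were 21.7% and 24.4%. The median difference of the members was -0.11 in clone 4 and -0.31 in clone 10, where the median of all genes was 0 in each. The transsulfuration enzyme gene Cth was the only member at least 2-fold lower in both clones and none was 2-fold higher, that is 1 of 40 (2.50%), against 1.81% lower and 1.19% higher over all genes and 3.15% and 2.14% over the genes reaching 6.91. At 1.5-fold in both clones there were 3 members lower (Cth, Xbp1 and Nupr1), against 3.63% of all genes and 6.09% of those reaching 6.91, and 2 higher (Atf3 and Stc2), against 2.54% and 4.42%.

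No member rose or fell, words kept here for a gene at least 2-fold apart in both clones with a limma adjusted p (Benjamini-Hochberg over all genes) under 0.05, a rule that called 1.16% of all genes and 2.05% of those reaching 6.91. At an unadjusted limma p under 0.05 there were 15 members (37.5%), against 17.5% of all genes and 27.4% of those reaching 6.91. With limma's prior taken from all genes, 9 members had an adjusted p under 0.05, none of them 2-fold apart. The standard error rests on 1 residual degree of freedom, the spread between the clones, and mock was measured once. A lower value in RNA from a whole culture cannot tell fewer expressing cells from less RNA per cell, and nothing in the labels tells if the clone cultures were independent, so p-values may measure technical spread only.

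Facts of the whole series bear on these values. Mafk itself read 8.74 in clone 4 and 8.59 in clone 10, against 8.49 in mock (limma adjusted p = 0.612), and whether its probes match the transgene was not analysed here. Of 10 epithelial markers, Cdh1 (E-cadherin) fell by 4.60 (limma adjusted p = 0.0282), no other of the 10 reached 2-fold in each clone, and the summed linear level of the list was 17389 in clone 4 and 18141 in clone 10, against 25546 in mock. The keratin genes Krt8, Krt18 and Krt19 read between 10.92 and 13.67 on every array, while the epithelial markers Epcam and Esrp1 read 5.58 and 5.48 on every array, below the array medians. Of 21 fibroblast, endothelial, immune and adipocyte markers none was 2-fold higher in both clones, and the fibroblast marker Dcn was over 2-fold lower in each clone without passing (limma adjusted p = 0.0711). The clone values of Cdh1 and Dcn lie below their array medians. The part of the epithelial difference in the values below was not tested.

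**Figure D1:**
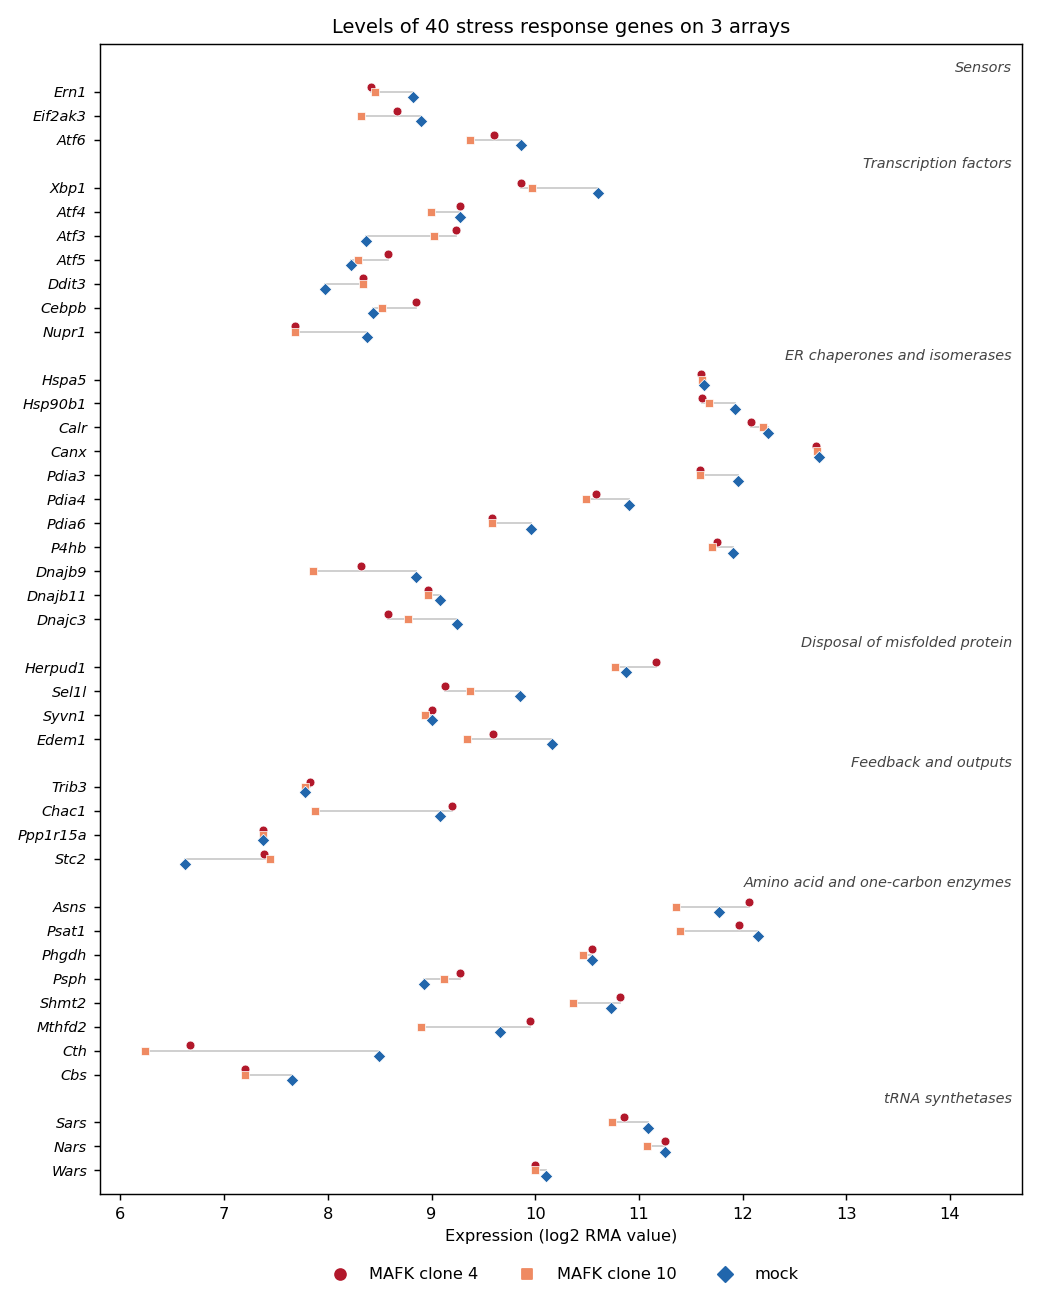
Log2 RMA value (horizontal axis) of each of the 40 measured members (rows, grouped by role) in MAFK clone 4 (dark red circles), MAFK clone 10 (orange squares) and mock (blue diamonds), with 1 array each and a grey line spanning the 3 values. The mock diamond lies rightmost for every chaperone and isomerase gene, and Chac1, Asns and Mthfd2 have their 2 clones on opposite sides of it.

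All 3 sensor genes lay lower in both clones than in mock. Ern1, which encodes IRE1, the enzyme that splices Xbp1 mRNA, read 8.41 in clone 4 and 8.46 in clone 10, against 8.82 in mock. Eif2ak3, the gene of PERK, read 8.66 and 8.32 in clones 4 and 10, against 8.90 in mock. Atf6, whose protein is cut free in the Golgi to act as a transcription factor, read 9.61 and 9.37 in the clones, against 9.86 in mock. Their mean differences of -0.39, -0.41 and -0.37 were alike in size, and none passed (limma adjusted p = 0.167, 0.467 and 0.356).

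The 7 transcription factor genes went in both directions. Xbp1, the factor made from IRE1-spliced mRNA, read 9.87 in clone 4 and 9.97 in clone 10, against 10.61 in mock, a difference of -0.69 ± 0.09 (SE; limma adjusted p = 0.108). Both clones were thus at least 1.5-fold below mock, and the clones lay closer to each other than to mock. The probe set reads Xbp1 transcripts in sum, so spliced and unspliced forms are not told apart. Nupr1, a small stress-induced chromatin protein, read 7.68 in both clones, against 8.38 in mock (difference -0.70 ± 0.07, SE; limma adjusted p = 0.0823). Its equal values in the clones give it the smallest standard error of the fit, and with such ties given no weight its adjusted p was 0.207.

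In the opposite direction, Atf3, a stress-induced bZIP factor, read 9.23 in clone 4 and 9.02 in clone 10, against 8.37 in mock. That difference of 0.76 ± 0.13 (SE) did not pass (limma adjusted p = 0.147). Ddit3, which encodes the death-promoting factor CHOP, read 8.34 in both clones, against 7.97 in mock (limma adjusted p = 0.165). Atf4 itself read 9.27 in clone 4, 8.99 in clone 10 and 9.28 in mock. Since ATF4 is controlled largely at translation, its mRNA is no measure of its protein. Atf5 and Cebpb, bZIP genes of the same branch, were 0.35 and 0.41 above mock in clone 4 and 0.07 and 0.08 above it in clone 10.

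The chaperone and disulfide isomerase genes of the endoplasmic reticulum shared 1 direction. All 11 lay below mock in both clones, where 17.9% of all genes and 29.1% of those reaching 6.91 did. Equal values hold that share down: once a second quantile normalization had broken ties, 44.6% of all genes lay below mock in both clones, and the 11 still did. The median difference of the 11 was -0.32 in clone 4 and -0.26 in clone 10. Of the 11, 8 were lower by at least 0.1 in each clone, as were 13.1% of all genes and 21.7% of those reaching 6.91. The 3 others were the lectin chaperone genes Calr (-0.17 and -0.05) and Canx (-0.03 and -0.02) and Hspa5, which encodes BiP, the main chaperone of this compartment. Hspa5 read 11.60 in clone 4 and 11.61 in clone 10, against 11.63 in mock, so the gene most used as a gauge of the unfolded protein response differed by 0.02 from mock in each clone. No member of this group passed, and the lowest limma adjusted p among them was 0.165, for Pdia6.

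The isomerase genes Pdia3, Pdia4 and Pdia6, whose products form disulfide bonds in new proteins, were each lower in both clones. Pdia3 read 11.59 in both clones, against 11.96 in mock. Pdia6 read 9.59 in both clones, against 9.96 in mock, and Pdia4 read 10.58 in clone 4 and 10.49 in clone 10, against 10.91 in mock. Pdia4 has 2 probe sets, and with their mean its difference was -0.17 rather than -0.37, so its size depends on the probe set. P4hb, the founding disulfide isomerase, was 0.16 and 0.21 below mock in clones 4 and 10, and Hsp90b1, the endoplasmic reticulum form of HSP90, was 0.32 and 0.26 below.

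Among the genes of J-domain co-chaperones that work with BiP, Dnajb9 differed most. It read 8.32 in clone 4 and 7.86 in clone 10, against 8.85 in mock, a mean difference of -0.76 ± 0.25 (SE; limma adjusted p = 0.303), and the clones differed by 0.47. Dnajc3, which encodes a co-chaperone also known as an inhibitor of eIF2 kinases, read 8.58 and 8.77 in clones 4 and 10, against 9.24 in mock (limma adjusted p = 0.191). Dnajb11 was 0.12 below mock in both.

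Genes for the disposal of misfolded protein were split. Edem1, which steers misfolded glycoproteins to degradation, read 9.60 in clone 4 and 9.34 in clone 10, against 10.16 in mock (difference -0.69 ± 0.14, SE; limma adjusted p = 0.188). Sel1l, the adaptor of the HRD1 ubiquitin ligase, read 9.13 and 9.37 in the clones, against 9.86 in mock (limma adjusted p = 0.210). Syvn1, which encodes that ligase, read 9.01 in clone 4, 8.94 in clone 10 and 9.01 in mock, so the genes of the ligase and its adaptor did not share a difference. Herpud1, a membrane protein that helps assemble the ligase complex, read 11.16 in clone 4 and 10.77 in clone 10, against 10.87 in mock, on opposite sides of mock.

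Of the 4 feedback and output genes, Stc2 alone was at least 0.1 from mock in both clones in the same direction. Stc2, which encodes the secreted glycoprotein stanniocalcin-2, read 7.39 in clone 4 and 7.44 in clone 10, against 6.62 in mock, a difference of 0.80 ± 0.07 (SE) that did not pass (limma adjusted p = 0.0766). Its mock value lies below the median of the mock array, where RMA compresses differences. Ppp1r15a, the gene of the GADD34 subunit that removes phosphate from eIF2 alpha, had the same value, 7.37, on all arrays, and the pseudokinase gene Trib3 read 7.83, 7.78 and 7.78 in clone 4, clone 10 and mock. Chac1, whose enzyme degrades glutathione, read 9.20 in clone 4 and 7.88 in clone 10, against 9.08 in mock.

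**Figure D2:**
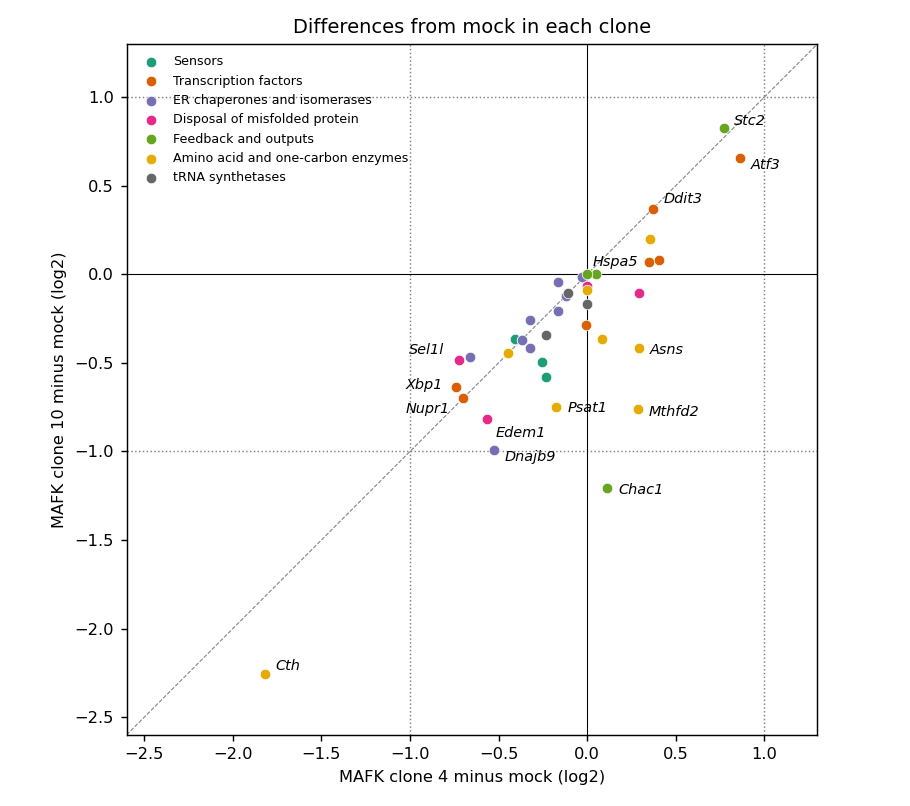
Difference from mock (log2) in MAFK clone 4 (horizontal axis) and MAFK clone 10 (vertical axis) for the 40 members, coloured by role, with dotted lines at 2-fold and a dashed line of equal differences. Cth stands alone beyond 2-fold in both clones, at -1.82 and -2.26, and Chac1, Mthfd2, Asns and Psat1 lie well below the line of equal differences.

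The 8 amino acid and one-carbon enzyme genes held the largest difference from mock of the list, that of Cth, and several of them differed between the clones. Cth, the gene of cystathionine gamma-lyase, which releases cysteine in the last step of transsulfuration, read 6.67 in clone 4 and 6.24 in clone 10, against 8.49 in mock. The mean difference of -2.04 ± 0.23 (SE) did not pass (limma adjusted p = 0.0971, between 0.0718 and 0.118 in the other fits), and both clone values lay below their array medians. Cbs, whose enzyme carries out the step before it, read 7.21 in both clones, against 7.65 in mock (limma adjusted p = 0.136). Its clone values are equal, as for Nupr1, and with such ties given no weight its limma adjusted p was 0.297. Both genes of the transsulfuration route were therefore lower in the clones, by unequal amounts.

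The 3 genes of serine synthesis, Phgdh, Psat1 and Psph, were not apart from mock in 1 direction. Phgdh, the first enzyme, read 10.55 in clone 4, 10.46 in clone 10 and 10.55 in mock. Psat1, the second, read 11.97 and 11.39 in clones 4 and 10, against 12.14 in mock, and Psph, the last, read 9.28 and 9.12, against 8.92 in mock. In mitochondrial folate metabolism, Shmt2 read 10.81 in clone 4 and 10.37 in clone 10, against 10.73 in mock, while Mthfd2 read 9.95 and 8.90, against 9.66. Asns, the asparagine synthetase gene and a textbook target of ATF4, read 12.07 in clone 4 and 11.36 in clone 10, against 11.77 in mock. For Asns, Shmt2 and Mthfd2 clone 4 lay above mock and clone 10 below it.

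The 3 measured aminoacyl-tRNA synthetase genes, whose enzymes charge tRNAs with serine, asparagine and tryptophan, differed little. Sars was 0.23 and 0.34 below mock in clones 4 and 10, Wars 0.11 below in both, and Nars equal to mock in clone 4 and 0.17 below it in clone 10. Limma adjusted p-values of the 3 genes were 0.289 for Sars, 0.665 for Wars and 1 for Nars.

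The clones differed from each other more often in 1 direction. Of the 40 members, 18 (45.0%) were at least 0.1 lower in clone 10 than in clone 4 and 4 (10.0%) at least 0.1 higher, against 10.1% lower and 8.84% higher over all genes and 15.5% and 13.1% over the genes reaching 6.91 on an array. A difference of at least 1.5-fold was reached by 3 members (7.50%), all lower in clone 10, against 0.677% of all genes lower and 0.783% higher, or 1.15% and 1.37% of those reaching 6.91. These were Chac1 (-1.32), Mthfd2 (-1.05) and Asns (-0.71), with Psat1 (-0.58) just short of the limit. Each clone has 1 array, so this difference has no replicate check and no test.

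Most amino acid enzyme genes were lower in clone 10, and most chaperone genes were not. Of the 8 amino acid and one-carbon genes, 6 were at least 0.1 lower in clone 10 and none higher, with a median of -0.44 for clone 10 minus clone 4. Of the 11 chaperone and isomerase genes, 1 was at least 0.1 lower in clone 10 and 2 were higher, with a median of 0. A list of 27 further ATF4 pathway genes, holding amino acid transporters and enzymes outside the 40 members, had 13 genes at least 0.1 lower in clone 10 and none higher. Whether the roles differ from each other was not tested.

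**Figure D3:**
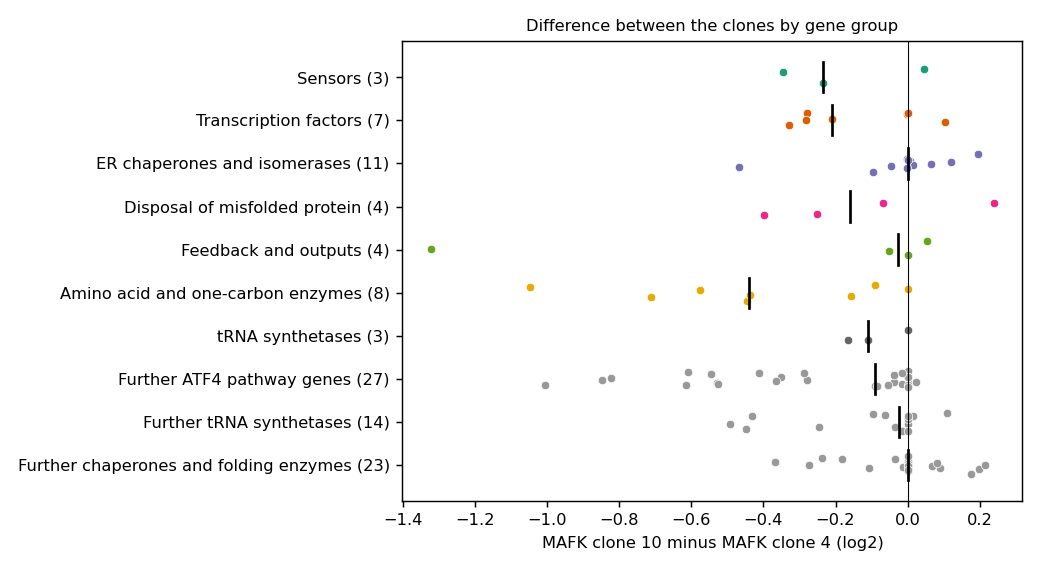
MAFK clone 10 minus MAFK clone 4 (log2, horizontal axis) for each gene of the 7 roles (coloured points) and of 3 lists of further genes (grey points), with numbers of genes in brackets and the median as a black bar. Amino acid and one-carbon enzymes and further ATF4 pathway genes extend to the left of 0, while the chaperone groups sit around 0.

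Among these further ATF4 pathway genes, Bcat1, the branched-chain aminotransferase gene, read 8.46 in clone 10 and 9.47 in clone 4, against 6.48 in mock. The cystine transporter gene Slc7a11 read 5.85 in clone 10 and 6.70 in clone 4, against 7.84 in mock. Gpt2, an alanine aminotransferase gene, and Aldh18a1, of proline synthesis, were 0.82 and 0.61 lower in clone 10 than in clone 4, and the cationic amino acid transporter gene Slc7a1 was 0.53 lower. The last 3 were named after their values were seen.

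Against mock, the further genes of these pathways did not all go the way of the members. Of 23 further chaperone and folding genes, 8 lay at least 0.1 below mock in both clones and 3 above, and none rose or fell. By this measure 13.1% of all genes lay below mock and 19.9% above. For genes reaching the median of all probe sets on an array, the shares were 21.7% and 24.4%. The median difference of the 23 genes was -0.05 (clone 4) and 0 (clone 10). Dnajc10, a disulfide reductase gene, read 9.06 in clone 4 and 9.24 in clone 10, against 10.16 in mock (limma adjusted p = 0.0945), whereas Creld1 was 0.95 and 0.67 above mock (limma adjusted p = 0.169). Of 19 further disposal and translocon genes, 5 lay below mock and 4 above by the same measure. Sec62, of the protein translocation channel, read 9.91 in both clones, against 9.29 in mock (limma adjusted p = 0.0954). Equal clone values give Sec62, like Nupr1, the smallest standard error of the fit. The retrotranslocation gene Derl1 was 0.33 and 0.41 below mock in clones 4 and 10. The uniform direction of the 11 chaperone members thus did not extend to every gene of protein folding that was measured.

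Of the 27 further ATF4 pathway genes, 7 lay below mock in both clones by at least 0.1 and 5 above. None of the 27 rose or fell. Below mock by at least 0.1 in both clones were 13.1% of all genes, and 19.9% were above. Among genes reaching the median of all probe sets on an array, 21.7% were below and 24.4% above. Bcat1 was over 2-fold higher than mock in each clone (limma adjusted p = 0.186) and Shmt1, the cytosolic serine hydroxymethyltransferase gene, was 2.23-fold higher (limma adjusted p = 0.118). Slc7a11 was over 2-fold lower in each clone (limma adjusted p = 0.254), the same direction as Cth and Cbs, which supply cysteine by another route. The mock value of Bcat1 and the clone values of Slc7a11 lie below their array medians, so no exact fold is given for either. These 3 were the genes of that list 2-fold apart in both clones. At 2-fold in both clones, 1.19% of all genes were higher and 1.81% lower. The shares were 2.14% and 3.15% for genes reaching the median of all probe sets on an array. Of 14 further tRNA synthetase genes, 5 lay below mock and 1 above by at least 0.1, with Tars, for threonine, at 9.12 in clone 4 and 8.69 in clone 10, against 9.93 in mock (limma adjusted p = 0.200). Lars, for leucine, was 0.61 and 0.51 below mock.

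Of the 11 other genes for eIF2 kinases, its phosphatase and its exchange factor, 4 lay at least 0.1 below mock in both clones. Only 1, Eif2ak4, lay at least 0.1 above it in both. The matching shares of all genes were 13.1% below and 19.9% above. They were 21.7% and 24.4% for genes reaching the median of all probe sets on an array. Eif2ak4, the gene of GCN2, read 9.01 in clone 4 and 8.93 in clone 10, against 8.41 in mock (limma adjusted p = 0.127). The adaptor gene Nck1 read 8.56 in both clones, against 9.13 in mock (limma adjusted p = 0.106). This p-value too rests on the smallest standard error of the fit, given by equal clone values. Eif2ak3 (PERK) and Eif2ak4 (GCN2), which act on the same eIF2 site, thus lay on opposite sides of mock, neither passing.

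**Figure D4:**
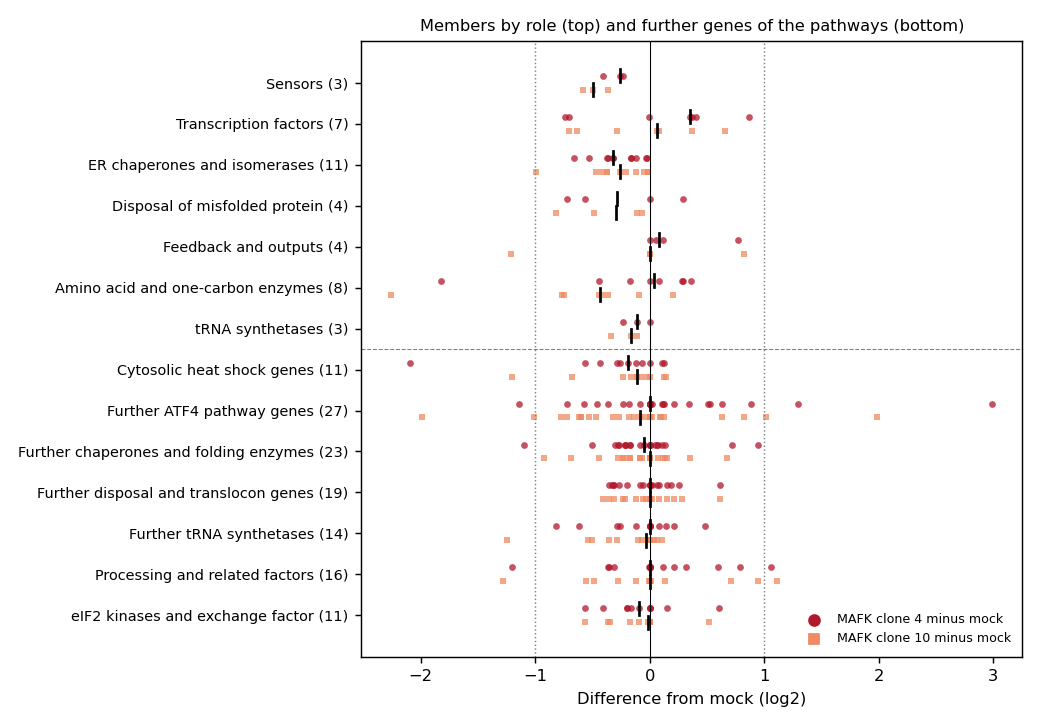
Difference from mock (log2, horizontal axis) of every gene in MAFK clone 4 (dark red circles) and MAFK clone 10 (orange squares), by role for the members above the dashed line and by list for further genes below it, with numbers of genes in brackets, medians as black bars and dotted lines at 2-fold. The 11 chaperone and isomerase members lie left of 0 in both clones, while the medians of the further lists lie between -0.19 and 0.

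Members whose promoters hold the same element, as printed above, did not share 1 size of difference. The 7 genes with an ERSE differed from mock by -0.66 to 0 in clone 4 and by -0.47 to -0.02 in clone 10. They include Hspa5 and Canx, near 0, and Dnajc3, the lowest. Below mock in both clones were 6 of the 7, all of them among the 11 chaperone and isomerase members described above. Of all genes 17.9% lay there, and 29.1% of those reaching 6.91, or 44.6% of all genes once ties were broken. Of the 5 measured genes with a CARE, differences ran from -0.70 to 0.86 in clone 4 and from -1.21 to 0.65 in clone 10. In clone 10, 4 of the 5 (Asns, Atf3, Chac1 and Herpud1) were at least 0.1 lower than in clone 4, while Nupr1 was equal in both. These 4 are among the 18 of 40 members (45.0%) already counted above as lower in clone 10. The share was 10.1% over all genes and 15.5% over those reaching 6.91. For the 6 measured genes with an ARE, whose windows are not printed, differences from mock ran from -0.41 to 0.29 in clone 4. In clone 10 they ran from -0.42 to -0.05. A motif match describes the sequence and is no evidence that a factor was bound in these cells.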

How the data were processed

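The authors deposited log2 values, 1 per probe set and array; the submitters' processing notes name RMA, and its version is not given in the sources used here. RMA corrects background, quantile normalizes arrays and summarises probes by median polish, which over 3 arrays can return equal values: 55.5% of genes were equal in both clones. Array medians were 6.92 (clone 4), 6.93 (clone 10) and 6.89 (mock), and the number of arrays limits the precision. Of 28815 probe sets, 21780 had 1 symbol, 1605 several and 5430 none; symbols were updated by Entrez identifier (21689 matched). Limma 3.58.1 in R 4.3.3 compared MAFK with mock over 19935 genes, two-sided, with the prior (1.93 degrees of freedom, SD 0.0694) from genes whose clones differed by more than 1e-08, and Benjamini-Hochberg adjustment. The fit was checked on simulated data. Members, role groups, lists and tests were chosen with earlier results of these data known. All measured members were to be named, with further list genes 2-fold apart or among the top 2 of their list. The limit of 0.1 was set after the values were seen. Alternatives were other priors, a second quantile normalization, averaged probe sets, low genes or chromosomes left out, a 1.5-fold limit and leaving out each clone.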

Additional observations from a re-analysis of the deposited data

How the results depend on the processing

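No member was called under any of the fits tried, and no mean difference of a member changed sign under the fits on both clones. With clone 10 left out, Asns (0.29), Chac1 (0.11), Mthfd2 (0.29) and Shmt2 (0.08) turned positive, and with clone 4 left out Herpud1 turned to -0.11. Averaging probe sets moved Pdia4 to -0.17, against -0.37, and left the 11 chaperone members below mock. Over all genes the called count was 232, 159 with tied genes given no residual degree of freedom, and 360 with limma's prior from all genes. Nupr1, Stc2, Ddit3, Pdia3, Pdia6 and Cbs had adjusted limma p-values under 0.05, but less than 2-fold differences, with that prior and after a second quantile normalization, as did Ern1, Dnajb11 and Wars with that prior alone; most of these 9 have equal or nearly equal values in the clones. At 1.5-fold in both clones there were 5 members (Cth, Xbp1 and Nupr1 lower, Stc2 and Atf3 higher) and 1230 genes. Leaving out 1 clone left between 1 and 2 members at least 2-fold apart, since Chac1 was 2-fold lower in clone 10 alone, and between 715 and 753 genes, values with no test since 1 clone against mock leaves no residual degree of freedom. Counting any difference, 24 members lay below mock in both clones and 6 above; a second quantile normalization also gave 24 below, but raised the share of all genes below mock to 44.6% by breaking ties, so a count of any difference depends on how ties are treated. Leaving out 1 clone gave between 24 and 32 members below mock and between 6 and 12 above. Counting any difference between the clones, 9 members were higher in clone 10, against 4 at a limit of 0.1. The medians, -0.11 and -0.31, moved by less than the spread between the clones. No paired analysis was possible because mock has 1 array, so the groups share fewer than 2 replicate numbers.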

Other observations

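Heat shock genes, which answer unfolded protein outside the endoplasmic reticulum, were also mostly lower. The list was drawn up as cytosolic, but it also holds Hspd1 and Hspe1, genes of mitochondrial chaperones. Of 11 measured, 6 (Hspe1 among them) lay at least 0.1 below mock in both clones and 2 above, and none rose or fell. Over all genes the shares were 13.1% below and 19.9% above, and over those reaching 6.91 they were 21.7% and 24.4%. Hspb8, a small heat shock protein gene, read 7.98 in clone 4 and 8.87 in clone 10, against 10.07 in mock (limma adjusted p = 0.255). Hspb1 read 10.34 and 10.22 in clones 4 and 10, against 10.90 in mock (limma adjusted p = 0.127).

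Of 16 genes for the processing of the sensors and for related factors, 4 lay at least 0.1 below mock in both clones and 4 above. None rose or fell. The same shares were 13.1% and 19.9% over all genes, and 21.7% and 24.4% over those reaching 6.91. Bcl2l11, which encodes the death-promoting protein BIM, read 8.94 in clone 4 and 8.99 in clone 10, against 7.88 in mock, just short of passing (limma adjusted p = 0.0561). Tnfrsf10b, a death receptor gene, read 8.82 and 8.74, against 10.02 in mock (limma adjusted p = 0.0528). Both are known targets of CHOP, whose gene Ddit3 was 0.37 above mock in each clone without passing. Bcl2l11 and Tnfrsf10b lay on opposite sides of mock, and a link to CHOP was not tested. Traf2, whose protein binds IRE1, read 9.62 and 9.78, against 8.83 in mock (limma adjusted p = 0.103), and was named after its values were seen.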
